A study of Homo sapiens with 12 samples.

Results

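The genes described here encode the TGF-beta and BMP signalling pathway. They are 60 of the 60624 genes in the count tables and were chosen by gene symbol: the BMP, GDF, inhibin and TGF-beta ligands, their ACVR, BMPR and TGFBR receptors, the SMAD proteins, the ID genes and the antagonists NOG, CHRD, GREM1, FST, LEFTY1 and LEFTY2, with GDF15 left out. Transcripts were measured by bulk RNA-seq in islet-like cells that had been differentiated from expandable pancreatic progenitors (ePPs) of MEL1, a human embryonic stem cell line, collected on day 8 in a medium named R6. There were 4 groups of 3 libraries: NKX2-2 knockout (KO) and its wild type (WT), and CLEC16A KO and its own WT. NKX2-2 is a homeodomain transcription factor of islet cells, and CLEC16A is a regulator of mitophagy. All 4 groups shared the medium, which contained 10 µM 616452, an inhibitor of the TGF-beta type I receptor encoded by TGFBR1, and 0.2 µM LDN-193189, an inhibitor of BMP type I receptors. It also held 0.2 µM Compound E, 10 µM forskolin and 1 µM T3. Every level below was therefore measured in cells whose TGF-beta and BMP receptors were exposed to inhibitors. The progenitors had been grown on feeder cells, the labels name no edited clone, and they do not state whether replicates are separate cultures. The p-values therefore reflect how far these libraries differ, which may be technical variation.

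TGF-beta family ligands are secreted dimers that bring together type I and type II receptor kinases. TGF-beta, activin and nodal ligands act mainly through SMAD2 and SMAD3, and most BMP and GDF ligands through SMAD1, SMAD5 and SMAD9, with SMAD4 as the partner shared by both branches. Secreted antagonists trap ligands outside the cell, SMAD6 and SMAD7 block the receptors and the signalling SMADs from within, and ID1 to ID4 are well known transcriptional targets of the BMP branch. Inhibitors of both branches are widely used to direct pluripotent cells towards pancreatic endocrine cells.

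The NKX2-2 libraries held 16157481 to 20649976 counts each and the CLEC16A libraries 31364272 to 33763795, so genes with few reads carried less counting error in the CLEC16A libraries. The targeted genes do not check the labels at the transcript level: NKX2-2 had a log2 fold change of -0.32 in its KO (edgeR, adjusted p = 0.061) and CLEC16A one of 0.18 in its KO (edgeR, adjusted p = 0.0949). All 20 islet endocrine markers were detected in every library, with summed levels of 2358 to 2614 CPM (counts scaled to library size) in NKX2-2 KO and 6346 to 6816 CPM in NKX2-2 WT libraries, and of 16590 to 18830 CPM in CLEC16A KO and 30460 to 33430 CPM in CLEC16A WT libraries. Of these markers 3 were higher and 13 lower in NKX2-2 KO among 19 tested, and 1 was higher and 18 lower in CLEC16A KO among 20 tested. In bulk RNA, fewer cells of a type and less RNA per cell cannot be told apart.

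Ligands, receptors, SMADs, antagonists and ID genes all held members that passed the test in each knockout. In the NKX2-2 experiment 49 of the 60 genes had enough reads to be tested, and 16 were higher and 9 lower in KO at an adjusted p under 0.05 (edgeR's quasi-likelihood test with Benjamini-Hochberg adjustment over all genes tested, used throughout). Of all 17436 genes tested there, 33.4% were called (16.6% higher and 16.8% lower). In the CLEC16A experiment 49 were tested, and 16 were higher and 14 lower in KO, where 45.0% of all 19958 genes were called (23.7% higher and 21.3% lower). Changes of at least 2-fold were called for 13 of the 49 members in NKX2-2 KO, against 2234 of all 17436 genes (12.8%). In CLEC16A KO they were called for 12 of the 49 members, against 2775 of all 19958 genes (13.9%). The median log2 fold change of the members tested was 0.15 in NKX2-2 KO, against 0.03 over all genes, and 0.14 in CLEC16A KO, against -0.01 over all genes. The KO and WT libraries did not overlap in CPM for 31 of the 49 members in the NKX2-2 experiment, where this held for 45.5% of all genes, and for 33 of the 49 in the CLEC16A experiment, where it held for 53.8%. With limma on log2(TPM + 1), the split over all genes in CLEC16A KO became 3132 higher and 4691 lower, against 4732 and 4253 with edgeR, and the median log2 fold change of all genes became -0.11.

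**Figure D1:**
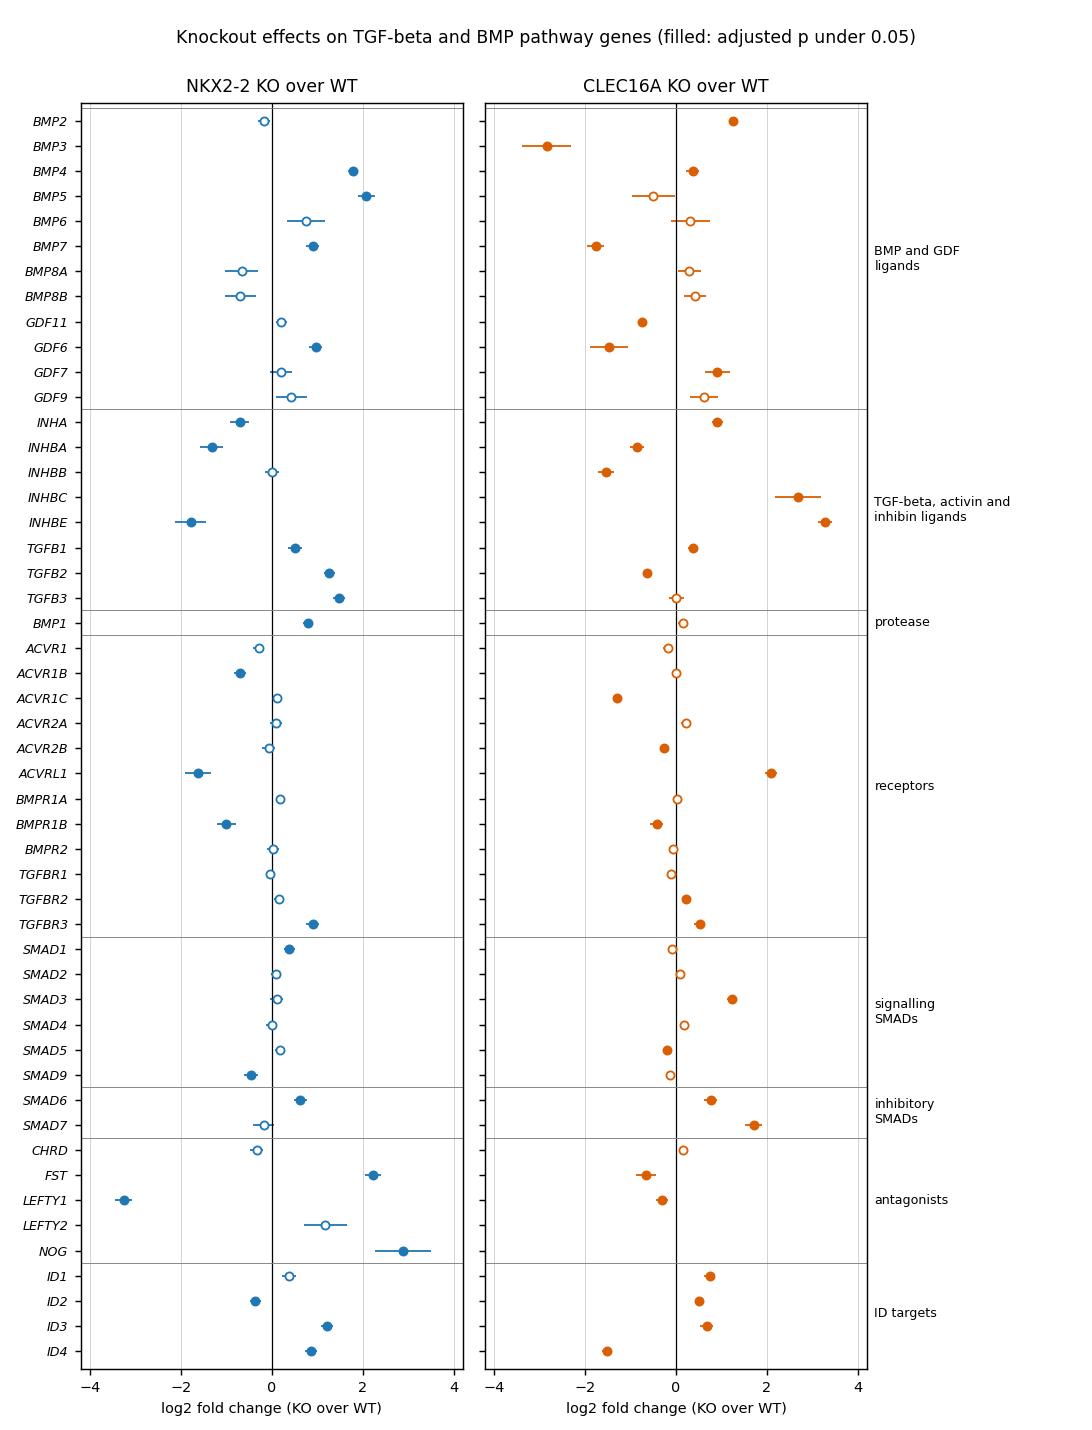
Log2 fold changes (KO over WT, horizontal axis) of tested members in the NKX2-2 and CLEC16A experiments, grouped by role, with bars of 1 standard error. Filled points passed the edgeR test and open points did not, and LEFTY1 (-3.26) in NKX2-2 KO and INHBE (3.28) in CLEC16A KO lie farthest from 0.

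The remaining members had few or no counts in at least 1 experiment. BMP10, BMP15, GDF1, GDF2, GDF3, GDF5, GDF10, GREM1 and NODAL were tested in neither experiment, and BMP15, GDF1, GDF2 and GDF3 had 0 counts in all 12 libraries. GDF1 shares its locus with CERS1, and the authors' TPM (a unit that corrects for transcript length) listed it at 3.84 TPM in NKX2-2 KO and 3.53 TPM in NKX2-2 WT without counts, so its level is uncertain. LEFTY2 is likewise uncertain, with 15 counts over the CLEC16A KO and 2 over the CLEC16A WT libraries beside 3.73 TPM in CLEC16A KO and 1.28 TPM in CLEC16A WT. NODAL had between 2 and 15 counts summed over the 3 libraries of a group. Too low to test were INHBC and BMP3 among the NKX2-2 libraries, and NOG and LEFTY2 among the CLEC16A libraries. BMP8A with BMP8B, and LEFTY1 with LEFTY2, are near-identical pairs whose reads the counting may have split. INHA, GDF11, TGFB1, TGFB3, CHRD, GDF9, ACVR2A and BMP8B overlap protein-coding genes on the opposite strand, and LEFTY1, SMAD4 and BMP8B overlap one on the same strand. ID2, ID4, INHBA, SMAD1, SMAD2, SMAD3, SMAD5, BMP1, BMP7, GDF5, ACVR2A and ACVR2B overlap antisense RNAs. No source used here states whether the counting was stranded, and reads of such partners cannot be told apart.

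On the per-length scale of the deposited TPM, ID2 was the most abundant member in each group, at 87.6 ± 9.45 TPM in NKX2-2 KO and 112.9 ± 9.45 TPM in NKX2-2 WT, and at 405 ± 38.7 TPM in CLEC16A KO and 315 ± 19.7 TPM in CLEC16A WT (SD, n = 3). BMP1, a protease that processes procollagen and cleaves the antagonist chordin rather than acting as a ligand, came next in the NKX2-2 experiment, at 46.2 ± 5.85 TPM in KO and 26.8 ± 1.95 TPM in WT. In NKX2-2 KO the ligands BMP4, TGFB2 and TGFB3 then followed, at 33.6 ± 1.64, 20.5 ± 2.34 and 19.5 ± 0.961 TPM, of which the last 2 values lie within 1 SD of each other. In NKX2-2 WT the receptor ACVR1B followed BMP1 at 26.3 ± 3.29 TPM, a gap smaller than the SD. In the CLEC16A experiment ACVR1B was the next most abundant, at 71.5 ± 9.29 TPM in KO and 74.99 ± 3.67 TPM in WT. Members with a mean of at least 1 TPM numbered 37 in each NKX2-2 group and 42 in each CLEC16A group. This cut takes in GDF1 in both NKX2-2 groups, and LEFTY2 in NKX2-2 WT and both CLEC16A groups, although their levels are uncertain. The TPM of the NKX2-2 libraries add up to less than the full total, so this cut does not mean the same in both experiments. The tables of the experiments were made separately, so levels are not compared between them.

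Of 11 BMP and GDF ligands tested in NKX2-2 KO, 4 were higher and none lower, so 36.4% were called, against 33.4% of all genes. BMP4, a ligand with broad roles in mesoderm and in foregut mesenchyme, was at 79.8, 81.3 and 78.6 CPM in the NKX2-2 KO libraries, against 22.9, 23.9 and 23.0 CPM in the NKX2-2 WT libraries. BMP5 was at 15.9, 21.9 and 22.9 CPM in the NKX2-2 KO libraries, against 5.82, 3.79 and 4.74 CPM in the NKX2-2 WT libraries. The libraries of both genotypes lay far apart for both genes, which were 3.43-fold (log2 fold change 1.78, SE 0.10, edgeR adjusted p = 6.32e-08) and 4.22-fold (log2 fold change 2.08, SE 0.19, adjusted p = 2.77e-06) higher. BMP7 (log2 fold change 0.90, SE 0.14) and GDF6 (log2 fold change 0.97, SE 0.14) were also higher, by less than 2-fold. The other 7 did not pass the test, among them BMP2 at -0.17 and GDF11 at 0.21.

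Among the TGF-beta, activin and inhibin ligands tested in NKX2-2 KO, the TGF-beta isoforms were higher and the inhibin and activin subunits called were lower. TGFB2 was at 109, 135 and 105 CPM in the NKX2-2 KO libraries, against 50.9, 50.8 and 43.8 CPM in the NKX2-2 WT libraries. TGFB3 was at 50.6, 45.2 and 47.0 CPM in the NKX2-2 KO libraries, against 19.8, 15.9 and 15.6 CPM in the NKX2-2 WT libraries. Neither gene overlapped between genotypes, and the log2 fold changes were 1.26 (SE 0.12, edgeR adjusted p = 4.56e-06) for TGFB2 and 1.48 (SE 0.13, adjusted p = 1.61e-06) for TGFB3. TGFB1 was higher by 0.51 on the log2 scale (adjusted p = 0.0273). INHBA, which encodes the subunit of activin A, was at 1.87, 1.75 and 1.62 CPM in the NKX2-2 KO libraries, against 4.76, 5.41 and 2.94 CPM in the NKX2-2 WT libraries. INHBE, which encodes the activin E subunit and is known from liver, was at 0.482, 0.450 and 0.923 CPM in the NKX2-2 KO libraries, against 1.92, 2.17 and 2.31 CPM in the NKX2-2 WT libraries. Both were lower in every KO library than in any WT library, with log2 fold changes of -1.33 for INHBA and -1.78 for INHBE, at low levels. INHA, the inhibin alpha subunit, had -0.71 (adjusted p = 0.0176), and INHBB, the activin B subunit, had 0.01 and did not pass the test.

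Among the members, the 2 largest log2 fold changes of NKX2-2 KO were those of the secreted antagonists LEFTY1 and NOG. LEFTY1, an inhibitor of nodal signalling, was at 1.32, 1.60 and 1.67 CPM in the NKX2-2 KO libraries, against 14.0, 13.1 and 17.2 CPM in the NKX2-2 WT libraries. This was a 9.58-fold fall (log2 fold change -3.26, SE 0.19, edgeR adjusted p = 6.92e-08), and each WT library held several times the level of any KO library. FST, follistatin, which binds activins, was at 12.2, 11.1 and 13.8 CPM in the NKX2-2 KO libraries, against 2.45, 2.93 and 2.54 CPM in the NKX2-2 WT libraries. NOG, noggin, which binds BMPs, was at 1.57, 1.80 and 2.08 CPM in the NKX2-2 KO libraries, against 0, 0.607 and 0.113 CPM in the NKX2-2 WT libraries. Both were higher in every KO library than in any WT library, by 4.66-fold for FST (log2 fold change 2.22, SE 0.17) and 7.38-fold for NOG (log2 fold change 2.88, SE 0.62, adjusted p = 0.00306). The fold of NOG rests on 98 counts over the KO and 14 over the WT libraries, and its log2 fold change was 4.93 without WT library 2 and 2.26 without WT library 1. CHRD, chordin, had -0.33 (adjusted p = 0.1) and LEFTY2 1.18 (adjusted p = 0.0724), and neither passed the test. For LEFTY2 the deposited TPM ran the other way, at 0.612 ± 0.293 TPM in NKX2-2 KO and 1.47 ± 0.236 TPM in NKX2-2 WT (SD, n = 3), so no direction is given.

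Of 12 receptors tested in NKX2-2 KO, 1 was higher and 3 were lower, so 33.3% were called, against 33.4% of all genes. TGFBR3, betaglycan, a co-receptor that presents TGF-beta2 to its receptors, was at 52.8, 66.5 and 54.2 CPM in the NKX2-2 KO libraries, against 36.4, 30.5 and 26.2 CPM in the NKX2-2 WT libraries. ACVRL1 (ALK1), a type I receptor best known from endothelium, was at 1.32, 0.750 and 1.21 CPM in the NKX2-2 KO libraries, against 3.12, 4.04 and 2.88 CPM in the NKX2-2 WT libraries. BMPR1B, a BMP type I receptor, was at 3.07, 2.75 and 4.56 CPM in the NKX2-2 KO libraries, against 6.97, 6.88 and 6.89 CPM in the NKX2-2 WT libraries. TGFBR3 was higher in every KO library (log2 fold change 0.90, SE 0.14), and ACVRL1 (log2 fold change -1.62, SE 0.28) and BMPR1B (log2 fold change -1.0, SE 0.21) were lower in every KO library. ACVR1B, the activin type I receptor ALK4, had -0.69 (adjusted p = 0.00141). TGFBR1 (log2 fold change -0.03) and the BMP type I receptors BMPR1A (0.18) and ACVR1 (-0.29) did not pass the test. BMP1 was higher in KO, at 221, 197 and 184 CPM in the NKX2-2 KO libraries, against 123, 116 and 109 CPM in the NKX2-2 WT libraries (log2 fold change 0.79, SE 0.10).

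Signalling SMADs stayed within narrow ranges in this experiment. SMAD1 was at 22.9, 25.9 and 26.1 CPM in the NKX2-2 KO libraries, against 20.1, 16.9 and 20.5 CPM in the NKX2-2 WT libraries. SMAD9 was at 15.7, 11.7 and 11.0 CPM in the NKX2-2 KO libraries, against 19.7, 16.8 and 16.03 CPM in the NKX2-2 WT libraries. SMAD1 was 1.31-fold higher (adjusted p = 0.0294) and SMAD9 1.37-fold lower in KO (adjusted p = 0.0371), with groups that did not overlap but lay close together. SMAD2, SMAD3, SMAD4 and SMAD5 had log2 fold changes of at most 0.18 in size and did not pass the test. The calls of SMAD1, SMAD9, TGFB1, INHA and ID2 were each lost on leaving out 1 of several single libraries (adjusted p up to 0.185, 0.142, 0.153, 0.0662 and 0.0995).

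Markers of mesenchyme were higher in NKX2-2 KO. Of the 18 ligands tested there 7 were also higher and 3 lower, so 55.6% were called, against 33.4% of all genes. Of 18 mesenchyme markers tested, 17 were higher and none lower in KO, with a summed level of 7893 to 8999 CPM in KO and 3108 to 3427 CPM in WT libraries, and none was at 0 in any library. Endothelium and blood markers summed to 69.8 to 78.0 CPM in KO and 24.0 to 30.4 CPM in WT libraries, with 4 of 7 tested higher and 1 lower. PTPRC was at 0 in at least 1 library of each genotype. Gut markers were lower in 6 and higher in 1 of 8 tested, at 1456 to 1610 CPM in KO and 2327 to 2515 CPM in WT libraries, and duct markers were lower in 4 and higher in 2 of 8, at 915.8 to 984 CPM in KO and 1040 to 1168 CPM in WT libraries. The part of mesenchymal, gut or duct cells in the higher BMP4, BMP5, TGFB2, TGFB3 and FST was not tested.

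**Figure D2:**
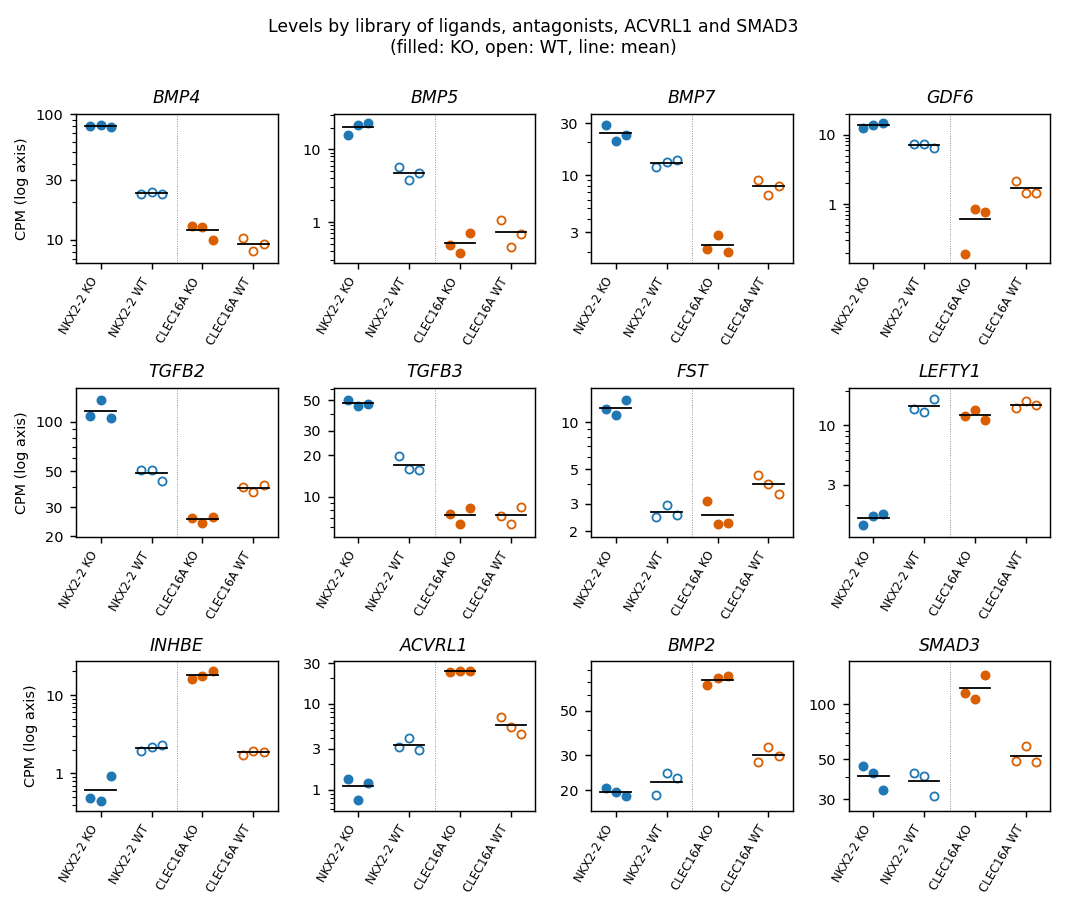
CPM per library (log axis, each panel with its own range) of 8 ligands or antagonists called in NKX2-2 KO and of INHBE, ACVRL1, BMP2 and SMAD3, with the mean as a line, KO filled and WT open. BMP4, BMP5, TGFB3 and LEFTY1 separate the NKX2-2 genotypes widely, and INHBE, ACVRL1, BMP2 and SMAD3 the CLEC16A genotypes. INHBE and ACVRL1 were also called in NKX2-2 KO, where they were lower. Levels are comparable within an experiment only.

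In CLEC16A KO 3 of the 12 BMP and GDF ligands tested were higher and 4 were lower, so 58.3% were called, against 45.0% of all genes. BMP2, a ligand of the same subgroup as BMP4, was at 67.6, 73.0 and 75.2 CPM in the CLEC16A KO libraries, against 27.8, 32.9 and 29.7 CPM in the CLEC16A WT libraries. It was 2.39-fold higher (log2 fold change 1.25, SE 0.08, edgeR adjusted p = 1.62e-11), and the lowest KO library held over 2-fold the level of the highest WT library. BMP7 was at 2.101, 2.86 and 1.99 CPM in the CLEC16A KO libraries, against 9.12, 6.64 and 7.99 CPM in the CLEC16A WT libraries. GDF11, which signals through the activin branch and is known to restrain endocrine progenitors in the mouse pancreas, was at 45.4, 43.7 and 37.0 CPM in the CLEC16A KO libraries, against 72.9, 67.1 and 73.4 CPM in the CLEC16A WT libraries. Both were lower in every KO library (log2 fold change -1.77, SE 0.19 for BMP7, log2 fold change -0.76, SE 0.08 for GDF11). GDF6 was at 0.194, 0.838 and 0.770 CPM in the CLEC16A KO libraries, against 2.15, 1.45 and 1.46 CPM in the CLEC16A WT libraries. BMP3, an atypical family member that opposes other BMPs, was at 0.291, 0.0621 and 0.128 CPM in the CLEC16A KO libraries, against 1.18, 0.785 and 1.55 CPM in the CLEC16A WT libraries. These 2 genes were lower at levels of few reads (log2 fold changes of -1.48 for GDF6 and -2.84 for BMP3, which had 15 counts over the KO and 118 over the WT libraries and -3.57 without KO library 1). GDF7 (0.91) and BMP4 (0.37, adjusted p = 0.0400) were higher by smaller amounts, and the BMP4 libraries of both genotypes overlapped.

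INHBE had the largest change of any member in the CLEC16A experiment. It was at 16.2, 17.6 and 20.2 CPM in the CLEC16A KO libraries, against 1.72, 1.96 and 1.88 CPM in the CLEC16A WT libraries. This was 9.70-fold higher (log2 fold change 3.28, SE 0.16, edgeR adjusted p = 9.48e-14), with all WT libraries under 2 CPM. INHBC, which encodes the activin C subunit, was at 0.970, 0.838 and 1.32 CPM in the CLEC16A KO libraries, against 0.115, 0.181 and 0.182 CPM in the CLEC16A WT libraries. INHBC and INHBE are neighbours on the plus strand of chromosome 12 (GRCh38, 57434760 to 57450828 and 57452323 to 57459280), and both rose, INHBC by 2.68 on the log2 scale (SE 0.51) on 98 counts over the KO and 16 over the WT libraries. INHBB was at 4.62, 3.94 and 2.70 CPM in the CLEC16A KO libraries, against 11.4, 9.81 and 11.4 CPM in the CLEC16A WT libraries. It fell in every KO library (log2 fold change -1.53, SE 0.18). INHA had 0.91, INHBA -0.86, TGFB2 -0.64 and TGFB1 0.37, all past the test, and TGFB3 had 0.01 (adjusted p = 0.977).

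Of 12 receptors, 3 were higher and 3 lower in CLEC16A KO, so 50.0% were called, against 45.0% of all genes. ACVR1C (ALK7), a type I receptor for activin B and nodal that beta cells are known to express, was at 64.7, 62.6 and 69.2 CPM in the CLEC16A KO libraries, against 152, 166 and 166 CPM in the CLEC16A WT libraries. ACVRL1 was at 23.9, 24.0 and 24.0 CPM in the CLEC16A KO libraries, against 7.00, 5.37 and 4.53 CPM in the CLEC16A WT libraries. The groups of both lay far apart, ACVR1C being 2.46-fold lower (log2 fold change -1.30, SE 0.07, edgeR adjusted p = 4.40e-13) and ACVRL1 4.25-fold higher (log2 fold change 2.09, SE 0.14, adjusted p = 2.55e-11). ACVRL1 and ACVR1B neighbour each other on chromosome 12, and ACVR1B did not pass the test (adjusted p = 0.983). TGFBR3 (0.52) and TGFBR2 (0.21) were higher, and BMPR1B (-0.43) and ACVR2B (-0.26) lower, each by less than 1.5-fold. TGFBR1 (-0.12), BMPR1A (0.02) and ACVR1 (-0.18) did not pass the test here either, and neither did BMP1, at 80.4, 82.9 and 75.8 CPM in the CLEC16A KO libraries, against 79.5, 59.3 and 77.8 CPM in the CLEC16A WT libraries.

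Among the signalling SMADs, SMAD3, the receptor-activated SMAD that binds DNA in the TGF-beta and activin branch, was at 116, 107 and 145 CPM in the CLEC16A KO libraries, against 49.0, 58.8 and 48.1 CPM in the CLEC16A WT libraries. It was 2.36-fold higher (log2 fold change 1.24, SE 0.11, edgeR adjusted p = 4.78e-07) with no overlap. SMAD5 was at 99.5, 98.9 and 98.6 CPM in the CLEC16A KO libraries, against 112, 122 and 108 CPM in the CLEC16A WT libraries, a small fall (-0.20). SMAD1, SMAD2, SMAD4 and SMAD9 did not pass the test, with log2 fold changes from -0.12 to 0.17. Of 4 tested antagonists none was higher and 2 were lower by small amounts, so 50.0% were called, against 45.0% of all genes. FST was at 3.14, 2.24 and 2.25 CPM in the CLEC16A KO libraries, against 4.59, 4.01 and 3.46 CPM in the CLEC16A WT libraries. LEFTY1 was at 12.1, 13.7 and 11.1 CPM in the CLEC16A KO libraries, against 14.3, 16.4 and 15.0 CPM in the CLEC16A WT libraries. Their log2 fold changes were -0.66 for FST and -0.31 for LEFTY1 (adjusted p = 0.0426). The calls of BMP4, BMPR1B, FST, GDF7, LEFTY1, SMAD5, TGFB1 and TGFBR2 were each lost without 1 of several single libraries (adjusted p up to 0.156, 0.0936, 0.0849, 0.0533, 0.137, 0.0666, 0.0833 and 0.0659).

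Markers of other endoderm tissues also changed in the CLEC16A experiment. All 10 gut markers were higher in KO, with summed levels of 5142 to 6321 CPM in KO and 1027 to 1045 CPM in WT libraries, and all 8 duct markers were higher, at 1451 to 1582 CPM in KO and 940.6 to 986 CPM in WT libraries. Liver markers were higher in 9 of 11 cases and lower in none, at 16550 to 18220 CPM in KO and 6487 to 6799 CPM in WT libraries. In NKX2-2 KO 3 of 11 liver markers were higher and 2 lower, at 10210 to 12600 CPM in KO and 10060 to 11690 CPM in WT libraries. Mesenchyme markers were lower in 11 of 16 tested in CLEC16A KO and higher in none. They summed to 249 to 281 CPM in CLEC16A KO and 391 to 438 CPM in CLEC16A WT libraries, with TCF21 at 0 in at least 1 library of each genotype. Endothelium and blood markers summed to 12.3 to 16.4 CPM in CLEC16A KO and 25.1 to 26.4 CPM in CLEC16A WT libraries. Of 6 tested 1 was higher and 3 lower, and PTPRC and CD34 were at 0 in all 3 KO libraries. The part of gut, liver, duct or mesenchymal cells in the changes of INHBE, BMP2, SMAD3, BMP7 or ACVR1C was not tested.

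**Figure D3:**
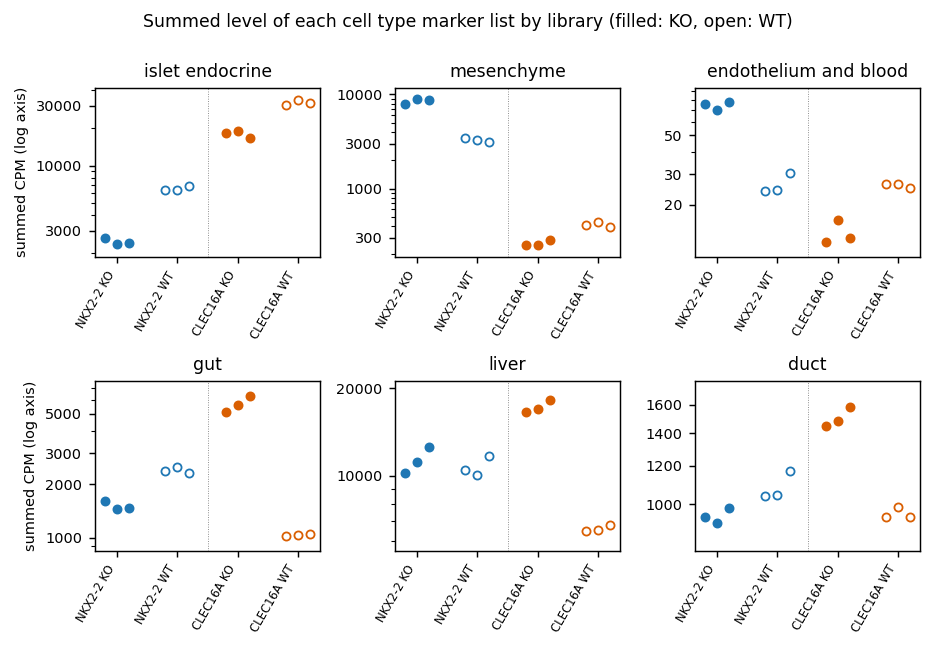
Summed CPM per library (log axis, each panel with its own range) of 6 marker lists, KO filled and WT open. Mesenchyme markers run from 7893 to 8999 CPM in NKX2-2 KO and from 3108 to 3427 CPM in NKX2-2 WT, and gut markers from 5142 to 6321 CPM in CLEC16A KO and from 1027 to 1045 CPM in CLEC16A WT.

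The ID genes, which encode helix-loop-helix proteins that block DNA binding by their partners, and the inhibitory SMADs are known direct targets of SMAD complexes. The promoters of the ID genes and SMAD6 are shown because these members are read most directly as outputs of the pathway. SMAD7 has more than 1 start in the promoter table and its windows are not shown. The 250 bases before the start are from RefSeq (GRCh38.p14), written 5′ to 3′ along the gene's strand, for SMAD6 (chr15:66701986-66702235, plus), ID1 (chr20:31605039-31605288, plus), ID2 (chr2:8681806-8682055, plus), ID3 (chr1:23559502-23559751, minus) and ID4 (chr6:19837120-19837369, plus). Capitals mark GTCT and its reverse complement AGAC, a 4-letter SMAD-binding element. Other SMAD-binding sequences, and bases beyond these 250, were not searched, so the capitals are not a full account of sites in these genes.
SMAD6: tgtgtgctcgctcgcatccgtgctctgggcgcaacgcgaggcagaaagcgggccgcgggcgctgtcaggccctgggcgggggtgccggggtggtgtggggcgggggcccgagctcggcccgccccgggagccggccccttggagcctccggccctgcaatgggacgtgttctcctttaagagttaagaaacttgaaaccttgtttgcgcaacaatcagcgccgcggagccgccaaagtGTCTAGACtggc
ID1: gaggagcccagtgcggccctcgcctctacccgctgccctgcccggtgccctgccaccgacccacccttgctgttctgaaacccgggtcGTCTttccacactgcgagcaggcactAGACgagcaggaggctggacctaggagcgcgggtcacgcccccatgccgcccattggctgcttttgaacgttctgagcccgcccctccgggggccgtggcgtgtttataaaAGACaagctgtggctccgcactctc
ID2: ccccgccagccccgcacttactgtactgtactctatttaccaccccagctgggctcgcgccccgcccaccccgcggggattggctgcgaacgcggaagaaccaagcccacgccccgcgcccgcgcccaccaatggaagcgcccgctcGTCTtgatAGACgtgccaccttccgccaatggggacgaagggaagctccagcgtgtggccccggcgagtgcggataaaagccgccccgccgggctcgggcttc
ID3: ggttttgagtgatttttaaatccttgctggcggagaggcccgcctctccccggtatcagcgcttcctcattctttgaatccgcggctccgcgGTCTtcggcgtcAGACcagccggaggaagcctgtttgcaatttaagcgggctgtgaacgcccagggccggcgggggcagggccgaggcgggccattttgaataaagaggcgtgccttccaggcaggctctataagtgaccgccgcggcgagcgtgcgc
ID4: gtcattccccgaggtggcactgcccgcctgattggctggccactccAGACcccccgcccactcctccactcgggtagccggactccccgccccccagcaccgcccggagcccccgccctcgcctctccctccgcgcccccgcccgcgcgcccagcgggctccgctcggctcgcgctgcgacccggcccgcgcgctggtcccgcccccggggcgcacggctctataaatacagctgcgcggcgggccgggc
The element occurred 3 times in the ID1 window, 2 times in those of ID2, ID3 and SMAD6, and 1 time in that of ID4. It is short and common: 77.5% of the 35116 promoter windows of this length in the table hold it on either strand, 45.6% at least 2 times and 20.9% at least 3 times. In SMAD6 both copies form the palindrome GTCTAGAC, which ends 4 bases before the start. That palindrome was in 0.182% of all windows and in 1 of the 81 windows that matched 49 of the 60 members. The ID1 and ID4 windows also hold TATAAA, as do 6.8% of all windows. A match describes these letters and does not show binding.

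In NKX2-2 KO 3 of the 4 ID genes were called, where 33.4% of all genes were, and the ID genes did not move together. ID3 was at 18.8, 20.4 and 24.3 CPM in the NKX2-2 KO libraries, against 8.75, 9.25 and 9.37 CPM in the NKX2-2 WT libraries. ID4 was at 28.95, 32.1 and 36.9 CPM in the NKX2-2 KO libraries, against 19.99, 16.9 and 17.3 CPM in the NKX2-2 WT libraries. ID2 was at 131, 160.3 and 170.2 CPM in the NKX2-2 KO libraries, against 183, 191 and 221 CPM in the NKX2-2 WT libraries. ID3 (log2 fold change 1.21, SE 0.14, edgeR adjusted p = 1.66e-05) and ID4 (log2 fold change 0.85, SE 0.13, adjusted p = 2.06e-04) were higher in every KO library, and ID2 was lower in every KO library (log2 fold change -0.37, SE 0.12, adjusted p = 0.0321). ID1, the ID gene most often used as a readout of BMP signalling, was at 8.73, 9.46 and 10.9 CPM in the NKX2-2 KO libraries, against 7.79, 7.94 and 6.60 CPM in the NKX2-2 WT libraries, which did not pass the test (log2 fold change 0.38, SE 0.16, adjusted p = 0.0798). Of the inhibitory SMADs, SMAD6, which acts mainly on the BMP branch, was at 11.9, 14.0 and 14.7 CPM in the NKX2-2 KO libraries, against 9.08, 8.14 and 9.09 CPM in the NKX2-2 WT libraries and was higher (log2 fold change 0.62, SE 0.14, adjusted p = 0.00424). SMAD7, which acts on both branches, was at 2.53, 3.65 and 2.42 CPM in the NKX2-2 KO libraries, against 2.74, 3.44 and 3.67 CPM in the NKX2-2 WT libraries, with overlapping groups (log2 fold change -0.18, adjusted p = 0.587).

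All 4 ID genes and both inhibitory SMADs were called in CLEC16A KO, where 45.0% of all genes were, and ID4 went against the rest. ID1 was at 17.8, 18.0 and 16.5 CPM in the CLEC16A KO libraries, against 10.5, 10.3 and 10.6 CPM in the CLEC16A WT libraries. ID2 was at 261, 282 and 309 CPM in the CLEC16A KO libraries, against 201, 192 and 212 CPM in the CLEC16A WT libraries. ID3 was at 13.9, 16.8 and 11.7 CPM in the CLEC16A KO libraries, against 8.98, 8.54 and 9.02 CPM in the CLEC16A WT libraries. Every KO library was above every WT library for these 3 genes, with log2 fold changes of 0.74 for ID1 (SE 0.11), 0.50 for ID2 (SE 0.07) and 0.68 for ID3 (SE 0.14). ID4 was at 8.44, 9.78 and 8.03 CPM in the CLEC16A KO libraries, against 23.6, 27.6 and 24.1 CPM in the CLEC16A WT libraries. It was 2.87-fold lower (log2 fold change -1.52, SE 0.12, edgeR adjusted p = 3.06e-10). SMAD7 was at 10.1, 10.4 and 8.57 CPM in the CLEC16A KO libraries, against 3.16, 3.68 and 2.04 CPM in the CLEC16A WT libraries. SMAD6 was at 12.0, 12.3 and 11.4 CPM in the CLEC16A KO libraries, against 7.06, 7.91 and 6.16 CPM in the CLEC16A WT libraries. Both were higher in every KO library, SMAD7 by 3.27-fold (log2 fold change 1.71, SE 0.19, adjusted p = 1.24e-07) and SMAD6 by 1.69-fold (log2 fold change 0.76, SE 0.14, adjusted p = 9.67e-05). SMAD6 and ID3 were thus called higher in both KO groups. Whether the marked promoter letters have a part in this was not tested.

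**Figure D4:**
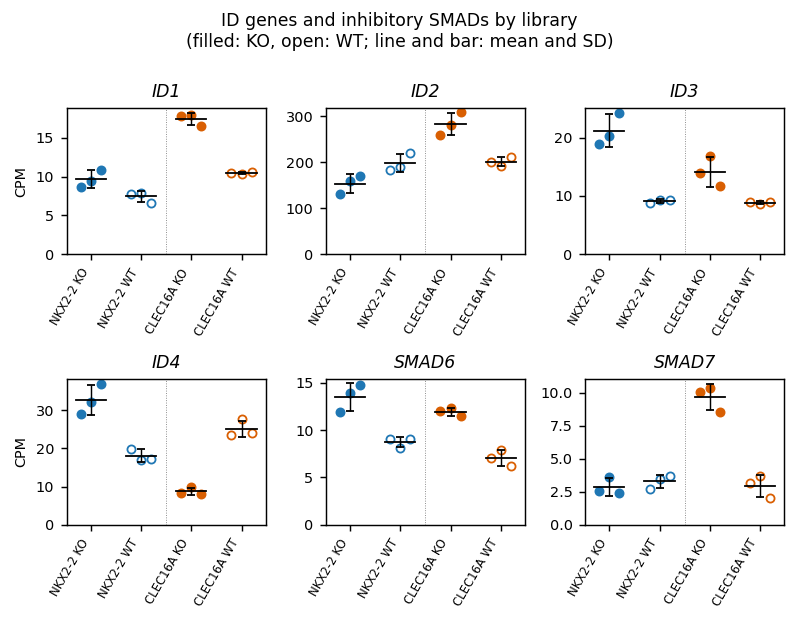
CPM per library of ID1 to ID4, SMAD6 and SMAD7 (linear axes from 0), KO filled and WT open, with the mean and SD of 3 libraries. ID3 and SMAD6 are higher in both KO groups, ID4 is higher in NKX2-2 KO and lower in CLEC16A KO, and SMAD7 is higher in CLEC16A KO.

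Because each knockout had its own wild type, the difference between both effects could be tested in 1 edgeR fit of all 12 libraries. It passed for 29 of 51 members tested, 18 with a higher and 11 with a lower effect in NKX2-2 KO than in CLEC16A KO, where 38.2% of all 20494 genes passed (17.8% higher and 20.4% lower). Under upper-quartile scaling the split over all genes became 4703 higher and 3517 lower, against 3648 and 4183, and the median of all genes became 0.16, against 0.04. Limma gave 4259 higher and 3277 lower on log2(TPM + 1) (median 0.13), and 3856 and 3175 on log2(TPM + 0.1) (median 0.14). Of the 17 members called in both experiments, 9 had opposite directions. How many of all genes were called in both experiments, in the same or in opposite directions, or in neither was not counted. The difference passed for all 9, but these were picked by opposite calls in the same libraries, so this is no separate support. Ligands and the activin trap FST made up most of those higher in NKX2-2 KO and lower in CLEC16A KO: the differences of log2 fold changes were 2.67 for BMP7 (SE 0.24), 2.90 for FST (SE 0.27), 2.45 for GDF6 (SE 0.38), 1.92 for TGFB2 (SE 0.14) and 2.38 for ID4 (SE 0.17). Those lower in NKX2-2 KO and higher in CLEC16A KO were INHBE (-5.06, SE 0.32), ACVRL1 (-3.71, SE 0.30), INHA (-1.60, SE 0.25) and ID2 (-0.85, SE 0.15).

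The other 8 members called in both experiments had the same direction. BMP4, ID3, SMAD6, TGFB1 and TGFBR3 were higher, and BMPR1B, INHBA and LEFTY1 lower, in both KO groups. Several of these calls are not firm. Those of BMP4, BMPR1B, LEFTY1 and TGFB1 in CLEC16A KO, and of TGFB1 in NKX2-2 KO, were lost without 1 of several single libraries. That of TGFBR3 in CLEC16A KO was lost under limma on TPM. The effects differed in size for 3 of these 8, BMP4 (1.42, SE 0.16), LEFTY1 (-2.94, SE 0.23) and ID3 (0.55, SE 0.20). The difference for SMAD6 was -0.13 (SE 0.19, adjusted p = 0.656) and that for INHBA -0.46 (SE 0.29, adjusted p = 0.228), and neither passed the test. In neither experiment did ACVR1, ACVR2A, BMP6, BMP8A, BMP8B, BMPR1A, BMPR2, CHRD, GDF9, SMAD2, SMAD4 or TGFBR1 pass the test, although the difference itself passed for BMP8B (-1.10) and CHRD (-0.48).

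**Figure D5:**
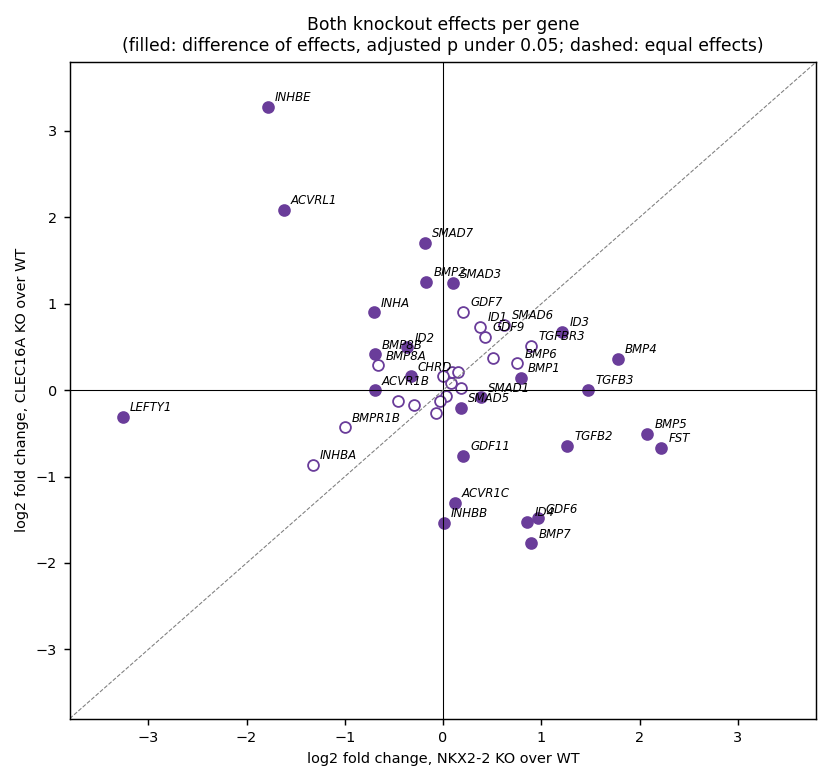
Log2 fold change in CLEC16A KO (vertical axis) against that in NKX2-2 KO (horizontal axis) for members tested in both, filled where the difference of effects passed the edgeR test, with equal effects on the dashed line. INHBE and ACVRL1 lie at the upper left, and BMP7, GDF6, ID4, TGFB2 and FST at the lower right.

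Further genes of the pathway were described from a list of 51 genes in the tables, which holds latent TGF-beta binding proteins, further antagonists, proteases, co-receptors, SMAD regulators and target genes. In NKX2-2 KO 17 were higher, 9 lower and 19 of 45 tested did not pass, so 57.8% were called, against 33.4% of all genes. The 5 with the smallest p were LTBP2, THBS1, TLL2, DLX5 and FSTL1. LTBP2, a matrix protein of the latent TGF-beta binding protein family, was at 3.47 ± 0.368 CPM in KO and 24.6 ± 4.49 CPM in WT libraries (SD, n = 3) (log2 fold change -2.83). THBS1, a matrix glycoprotein that can activate latent TGF-beta, was at 88.4 ± 17.7 CPM in KO and 28.0 ± 2.67 CPM in WT libraries (SD, n = 3) (1.66), and TLL2, a protease of the BMP1 family, at 18.4 ± 0.905 CPM in KO and 6.52 ± 0.845 CPM in WT libraries (SD, n = 3) (1.498). DLX5, a homeobox gene induced by BMPs in bone cells, was lower (-3.35), and FSTL1, a secreted follistatin-like glycoprotein, was higher (1.02).

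In CLEC16A KO 8 of the 45 tested list genes were higher, 13 lower and 24 did not pass, so 46.7% were called, against 45.0% of all genes. LTBP2 again had the smallest p, at 8.94 ± 0.369 CPM in KO and 27.0 ± 3.62 CPM in WT libraries (SD, n = 3) (log2 fold change -1.59). FSTL3, a secreted inhibitor of activins, was at 46.9 ± 1.92 CPM in KO and 22.0 ± 1.03 CPM in WT libraries (SD, n = 3) (1.09), while FSTL1 was lower (-0.78). NBL1, a BMP antagonist of the DAN family, had -1.03, and AMH, the anti-Müllerian hormone, a ligand of the family, had -0.76, both lower. The difference of effects passed for 25 of 46 list genes tested (54.35%, against 38.2% of all genes), 16 higher and 9 lower in NKX2-2 KO. Among the 5 with the smallest p were FSTL1 (1.80), FSTL3 (-1.77), LTBP1 (1.53) and TGFBI (1.15), the last a matrix protein named for its induction by TGF-beta.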

How the data were processed

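RNA-seq libraries of 4 groups of 3 were analysed, with groups and replicate numbers from the sample titles. The authors deposited, for each experiment, raw counts per Ensembl gene and TPM. The submitters' processing notes name hg38, StringTie 2.1.7, HISAT2 2.2.1 and fastp 0.22.0. Not given in the sources used here are the counting program, the annotation and strandedness. The deposited TPM of the NKX2-2 libraries add up to less than the full TPM total, so TPM levels are not compared between the experiments. TPM served to order genes within a group, to check genes with doubtful counts, and in the limma alternatives. Y-chromosome duplicates of pseudoautosomal genes (45 rows) were dropped.

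Each KO was tested against its own WT on the deposited counts over the whole table with edgeR 4.0.16 (robust quasi-likelihood F test, TMM, filterByExpr) in R 4.3.3, with a Benjamini-Hochberg threshold of 0.05. The difference of effects was an interaction over all 12 libraries. SE was taken as the size of the log2 fold change divided by the root of F. CPM use TMM-scaled library sizes. Alternatives used DESeq2 1.42.0, limma 3.58.1, other scalings, no count filter, a replicate block, 1 fit of all libraries, and each library left out. The fits were tested on simulated counts. No replicate pair agreed within sampling noise.

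The members, the list of other pathway genes, the marker lists and the tests were chosen with earlier results of these data known. Values per library are given for called members with a mean of at least 1 CPM and a 2-fold change, for the called ID genes and inhibitory SMADs, and for the 2 members of each role with the smallest p. Of the list of other pathway genes, the 5 with the smallest p are named. The counts over members and over that list include 1 gene each whose own values are not reported here. Acinar markers summed to 116.5 to 135 CPM in NKX2-2 KO and 44.1 to 52.3 CPM in NKX2-2 WT, and to 132 to 139 CPM in CLEC16A KO and 81.5 to 92.5 CPM in CLEC16A WT libraries. Markers of pluripotent cells summed to 32.0 to 39.9 and 24.3 to 27.7 CPM in NKX2-2 KO and WT, and to 27.8 to 28.7 and 63.9 to 74.6 CPM in CLEC16A KO and WT libraries. Gene coordinates are from GENCODE on GRCh38, and promoter sequences from RefSeq.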

Additional observations from a re-analysis of the deposited data

Results flagged for a closer look

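For 29 members the knockout effect differed between the NKX2-2 and the CLEC16A experiment by a test of the difference itself, the interaction in 1 edgeR fit of 12 libraries with Benjamini-Hochberg adjustment over 20494 genes. All values here are the log2 fold change of NKX2-2 KO minus that of CLEC16A KO. The tables were made separately and the experiments may differ in cells and handling, and what part this had was not tested.

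Among ligands and the protease BMP1 the effect was higher in NKX2-2 KO for BMP3 (2.26), BMP4 (1.42), BMP5 (2.59), BMP7 (2.67), GDF6 (2.45), GDF11 (0.97), TGFB2 (1.92), TGFB3 (1.48), INHBB (1.55) and BMP1 (0.66). It was lower for BMP2 (-1.42), BMP8B (-1.10), INHA (-1.60) and INHBE (-5.06). BMP3 had 24 counts over the KO and 39 over the WT libraries of the NKX2-2 experiment, and 15 and 118 in that of CLEC16A.

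Among antagonists it was higher for FST (2.90) and NOG (5.05), and lower for LEFTY1 (-2.94) and CHRD (-0.48). NOG had 98 counts over the KO and 14 over the WT libraries in the NKX2-2 experiment, and 3 and 16 in that of CLEC16A. Its difference was 7.15 without NKX2-2 WT library 2, 5.85 without CLEC16A KO library 2, 4.45 without NKX2-2 WT library 1, and 4.24 without CLEC16A WT library 2, where it no longer passed the test (adjusted p = 0.0518). That of BMP3 was 2.98 without CLEC16A KO library 1.

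Among receptors, SMADs and ID genes it was higher for ACVR1C (1.43), SMAD1 (0.47), SMAD5 (0.39), ID3 (0.55) and ID4 (2.38), and lower for ACVR1B (-0.68), ACVRL1 (-3.71), SMAD3 (-1.13), SMAD7 (-1.88) and ID2 (-0.85).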

How the results depend on the processing

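Under 14 alternatives for each experiment and 19 for the difference of effects (DESeq2, RLE and upper-quartile scaling, no count filter, a replicate block, limma on TPM with either pseudocount, 1 fit of all libraries, and each library left out), no called member changed direction and each count of called members stayed within 1.5 times its value. Of the values recomputed for single called members, 327 kept and 23 lost their call in NKX2-2 KO, 375 and 43 in CLEC16A KO, and 515 and 34 for the difference. Leaving out 1 library gave 14 to 16 higher and 6 to 9 lower members in NKX2-2 KO, 13 to 16 and 11 to 13 in CLEC16A KO, and 15 to 18 and 9 to 13 for the difference.

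Calls that were lost without a single library were, in NKX2-2 KO, ID2 and INHA (KO library 1 or 2, or WT library 3), SMAD1 and SMAD9 (KO library 2 or 3, or WT library 1 or 2) and TGFB1 (KO library 1 or 3, or WT library 1 or 2). In CLEC16A KO they were BMP4 (KO library 1 or 2, or WT library 2 or 3), BMPR1B (KO library 1, or WT library 1 or 3), FST (KO library 2 or 3, or WT library 1), GDF7 (WT library 1 or 3), LEFTY1 (KO library 1 or 3, or WT library 2 or 3), SMAD5 (KO library 1 or WT library 2), TGFB1 (KO library 3 or WT library 3) and TGFBR2 (KO library 1 or 2, or WT library 1). With edgeR adjusted p up to 0.0984, 0.0901, 0.0955, 0.0825, 0.0856 and 0.0532, the differences of BMP8B, CHRD, ID3, SMAD1, SMAD5 and BMP3 were each lost without at least 2 of the libraries in turn. ACVR2B, GDF6 and TGFBR3 in CLEC16A KO, and the difference of ACVR1B, lost their call only under limma on TPM or in 1 fit of all libraries. The causes were not tested.

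Same-numbered libraries did not pair throughout. The correlations of their deviations from the group means were 0.19, 0.07 and 0.50 in the NKX2-2 experiment and at most 0.06 in size in the CLEC16A experiment. In the NKX2-2 experiment library 3 of both genotypes deviated together: KO library 3 had 0.50 with WT library 3, against -0.33 and -0.32 with the other WT libraries. KO libraries 1 and 2 had -0.35 and -0.21 with WT library 3, and 0.07 to 0.28 with WT libraries 1 and 2. The main test took no account of this. With the replicate number as a block, 18 members were higher and 11 lower in NKX2-2 KO, 16 and 14 in CLEC16A KO, and 19 and 11 for the difference. Over all genes the block gave 8037 calls, against 5824, in NKX2-2 KO, and 8763, against 8985, in CLEC16A KO. Members called only with the block were ACVR1, CHRD, GDF11 and ID1 in NKX2-2 KO (edgeR adjusted p = 0.0278, 0.0137, 0.0484 and 0.0474), and TGFBR3 for the difference (adjusted p = 0.0412). Depth limits the genes under about 1 CPM: INHBC and BMP3 in the NKX2-2 and NOG and LEFTY2 in the CLEC16A experiment had too few reads to test.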
